A study of Rattus norvegicus with 12 samples.

Results

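Genes of mitochondrial and peroxisomal fatty acid oxidation were followed on 12 arrays of rat kidney RNA after ischemia-reperfusion injury, a model in which renal blood flow is stopped for a time and then let back. The genes were taken from a list of 37 symbols for fatty acid activation, the carnitine shuttle and the chain-shortening steps of both organelles, and every row annotated with exactly 1 of these symbols was used. This gave 36 genes of the 18166 tested. Decr2, a peroxisomal dienoyl-CoA reductase, had 4 rows that also list Nme4 or Rab11fip3 and was not analysed. There were 4 groups of 3 arrays: kidneys given anti-miR-182 (an inhibitor of the microRNA miR-182) at day 7 after injury, kidneys given placebo at day 7, kidneys given anti-miR-182 at day 2, and kidneys given placebo at day 2. All 4 groups had been injured, so no uninjured kidney serves as a baseline here. Each array came from a different animal by its title. Strain, sex, age, inhibitor dose and schedule were not given in the sources used here. A free-text label that speaks of a biopsy at hour 0 stands against titles that all give day 2 or day 7, which were followed.

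Fatty acid oxidation shortens fatty acids in cycles and hands the products to the respiratory chain. A fatty acid is first activated to its coenzyme A ester, long chains enter mitochondria through the carnitine shuttle, and each cycle then runs through a dehydrogenase, a hydratase, a second dehydrogenase and a thiolase. Peroxisomes run a parallel pathway for very long, branched and dicarboxylic chains, with their own oxidases, bifunctional enzymes and thiolases. The proximal tubule of the kidney, the segment that reabsorbs most of the filtrate, relies largely on fatty acids for energy, and the nuclear receptor PPAR-alpha is a known activator of many of these genes.

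The inhibitor is directed against miR-182. The mature rat sequence in RefSeq (assembly GRCr8, chr4:59752249-59752273, minus strand) is shown because it is the molecule that the treatment addresses. Its seed, bases 2 to 8, is in capitals.
rno-miR-182: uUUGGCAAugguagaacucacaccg

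Promoter windows of 300 bases, from 250 bases before to 50 after the annotated start in RefSeq GRCr8, were available for 33 of the 36 genes. Of these, 4 are printed: Ehhadh and Eci1, which mark the pathway here, Eci2, and Hadha, whose fall between the days was among the smaller of those that passed. Capitals in Ehhadh (chr11:92746159-92746458, plus strand) and Hadha (chr6:31907551-31907850, plus strand) mark the GC box GGGCGG, read on either strand. Capitals in Eci1 (chr10:13961000-13961299, plus strand) and Eci2 (chr17:30075516-30075815, plus strand) mark AGGTCA, the unit that nuclear receptors such as PPAR-alpha bind in pairs, also read on either strand. The windows of Eci1 and Eci2 hold the GC box too, left there in small letters.
Ehhadh: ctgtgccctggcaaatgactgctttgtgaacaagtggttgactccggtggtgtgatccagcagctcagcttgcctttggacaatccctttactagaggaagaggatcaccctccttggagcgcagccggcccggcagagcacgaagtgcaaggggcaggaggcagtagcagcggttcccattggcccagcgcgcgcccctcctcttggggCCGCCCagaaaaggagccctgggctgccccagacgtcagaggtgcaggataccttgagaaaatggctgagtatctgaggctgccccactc
Eci1: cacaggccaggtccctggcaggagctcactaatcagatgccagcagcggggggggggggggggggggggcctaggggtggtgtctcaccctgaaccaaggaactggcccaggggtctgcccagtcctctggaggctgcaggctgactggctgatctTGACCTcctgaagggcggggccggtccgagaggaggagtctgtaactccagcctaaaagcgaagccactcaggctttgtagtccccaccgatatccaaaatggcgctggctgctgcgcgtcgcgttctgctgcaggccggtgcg
Eci2: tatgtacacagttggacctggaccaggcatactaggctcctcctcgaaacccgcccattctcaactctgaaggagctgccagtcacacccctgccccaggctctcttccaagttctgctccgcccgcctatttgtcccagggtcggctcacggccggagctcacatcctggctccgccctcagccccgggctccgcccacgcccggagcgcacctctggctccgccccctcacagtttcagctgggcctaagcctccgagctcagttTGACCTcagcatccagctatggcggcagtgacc
Hadha: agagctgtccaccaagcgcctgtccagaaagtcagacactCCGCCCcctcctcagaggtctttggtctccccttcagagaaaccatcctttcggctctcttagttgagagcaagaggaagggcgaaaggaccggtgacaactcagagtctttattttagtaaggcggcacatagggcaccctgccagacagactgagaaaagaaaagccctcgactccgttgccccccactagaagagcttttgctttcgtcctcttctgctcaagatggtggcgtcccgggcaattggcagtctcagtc

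The GC box was present in 22 of the 33 windows (66.7%), against 33.1% of 33469 windows of the same length over all genes. The single unit AGGTCA was in 8 windows (24.2%), against 16.2% of all. Those 8 belonged to Acadvl, Acsm3, Acsm5, Eci1, Eci2, Hadhb, Hsd17b4 and Slc27a2. The direct repeat of AGGTCA with 1 free base between its copies occurred in 0 of the 33 and in 0.0538% of all windows, and the same repeat of AGGNCA in 0 and 0.415%. The motifs were searched on both strands, and a match is a run of letters, not a binding site. Hadha and Hadhb, which encode the alpha and beta subunits of the mitochondrial trifunctional protein, lie head to head on chromosome 6 with starts 301 bases apart, so their windows share 200 bases. On chromosome 1, Acsm5 and Acsm2 are direct neighbours in the annotation, and 6 genes lie between Acsm2 and Acsm3.

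Array medians were 5.84 to 5.93 on the log2 scale at day 7 and 5.98 to 6.1 at day 2, and 190 rows have no values on the day 2 arrays. Whether both days were normalized in 1 run is not stated in the labels, so that day and normalization cannot be told apart in any comparison of days. Comparisons of treatments were made within a day. The kidney markers Umod (11.19 to 11.95) and Slc34a1 (9.28 to 10.47) were bright on all 12 arrays. The 10 genes of brown or white fat averaged below the mean of all genes on every array, at -0.70 to -0.56 under anti-miR-182 and -0.67 to -0.62 under placebo at day 7, and at -1.02 to -0.86 and -1.02 to -0.81 at day 2, with Cidea at 6.82 to 7.93. The 7 adrenal cortex genes stood at -1.35 to -1.17 and -1.32 to -1.20 at day 7, and at -1.38 to -1.34 and -1.56 to -1.45 at day 2. The row of the Mir182 gene read 5.63, 6 and 4.93 under anti-miR-182 and 4.32, 3.97 and 4.75 under placebo at day 7, and 6.42, 6.21 and 6.57 against 4.84, 4.48 and 4.69 at day 2. It was thus higher with the inhibitor, by 1.45 ± 0.169 over both days (SE; limma adjusted p = 0.0104). The row was dim, with a mean over the 12 arrays among the lowest 25% of genes (below 5.47). The sources do not say whether the row reads the mature or the precursor form. The 16 tubular injury genes stood at 1.88, 2.05 and 1.27 above the mean of all genes under anti-miR-182 at day 2, all below the 2.24, 2.27 and 2.44 under placebo. With the inhibitor, 13 of the 16 had a lower mean than with placebo at day 2 (median -0.70), 9 of them at an unadjusted p under 0.05 (2.41% of all genes), and 0 passed in limma. This did not hold at day 7, where 9 of the 16 were lower and 7 higher (median -0.08). There 1 was lower at an unadjusted p under 0.05 (1.66% of all genes) and 2 were higher (1.61%). From day 2 to day 7, 12 of the 16 had a higher mean under anti-miR-182 (23.6% of all genes), and 5 did under placebo (28%).

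The mean log2 signal of the 36 genes separated the days and spread most under anti-miR-182 at day 2. It was 8.92, 8.99 and 8.76 in anti-miR-182 kidneys at day 7, 8.77, 8.69 and 8.58 in placebo kidneys at day 7, 9.19, 9.54 and 9.69 in anti-miR-182 kidneys at day 2, and 9.41, 9.51 and 9.39 in placebo kidneys at day 2. All 6 day 7 arrays lay below all 6 day 2 arrays, and within each day the treatments overlapped. Relative to the mean of all genes on the same array, which takes out a shift of the whole array, the level was 2.44 ± 0.095 in anti-miR-182 and 2.23 ± 0.122 in placebo kidneys at day 7, and 2.82 ± 0.265 in anti-miR-182 and 2.81 ± 0.0742 in placebo kidneys at day 2 (SD, n = 3 each). On that scale, too, the 6 day 7 arrays (2.11 to 2.51) lay below the 6 day 2 arrays (2.55 to 3.08).

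**Figure D1:**
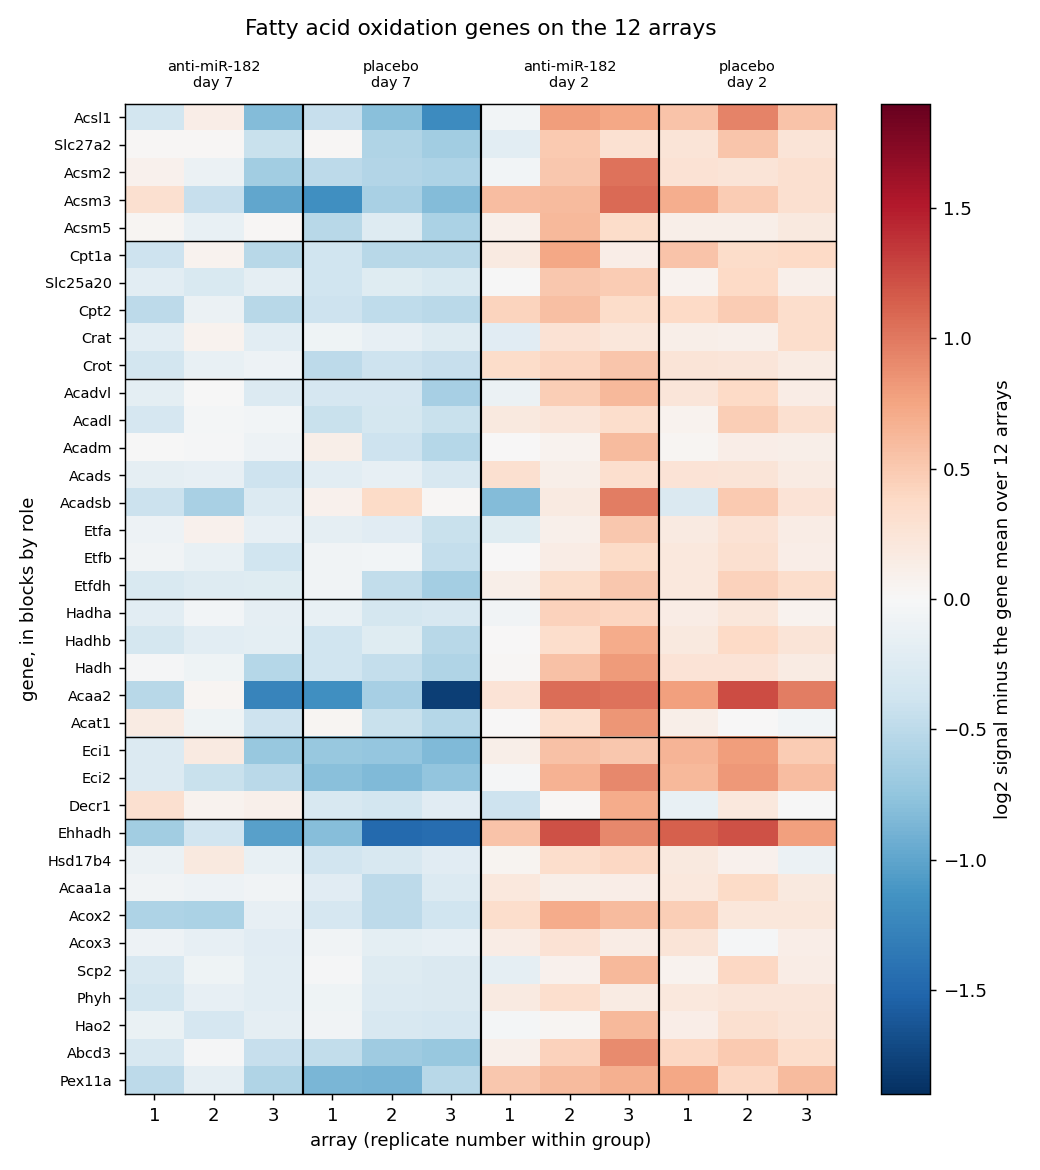
Each cell is the deposited log2 signal of 1 gene (down the page, in blocks by role) on 1 array (across, 3 per group), minus the gene's mean over the 12 arrays. The day 7 arrays on the left are mostly blue (below the mean) and the day 2 arrays mostly red, and replicate 1 of anti-miR-182 at day 2 is paler than its group.

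Single genes varied more between animals under anti-miR-182 at day 2 than in the other groups. Over the 36 genes the median SD came to 0.155 (anti-miR-182) and 0.132 (placebo) at day 7, and to 0.309 (anti-miR-182) and 0.12 (placebo) at day 2, while over all genes it was 0.137, 0.146, 0.179 and 0.112 in the same order of groups. In the group given anti-miR-182 at day 2, replicate 1 was the lowest of the 3 in 31 of 36 genes (86.1%, against 35.3% of all genes), and replicate 3 was the highest in 21 (58.3%, against 26%). Most of the genes thus shared the same low and the same high animal in that group. The proximal tubule list moved along: relative to all genes its 20 measured genes averaged 3.23 on replicate 1, against 3.78 and 3.88 on replicates 2 and 3. It was not alone in this. The thick ascending limb stood at 3.25 on replicate 1 against 3.34 and 3.63, and the podocyte list at 0.395 against 0.925 and 0.828. Other lists were highest on replicate 1: the distal convoluted and connecting tubule at 2.37 against 1.79 and 2.01, the collecting duct at 1.86 against 1.46 and 1.26, and the endothelium at 1.84 against 1.41 and 1.43. The part of these cell types in the spread was not tested. In bulk kidney RNA, fewer cells of a type and less RNA per cell cannot be told apart.

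At day 7, anti-miR-182 kidneys were set against placebo kidneys to see what the inhibitor changed. Most fatty acid oxidation genes had higher values under the inhibitor and none passed the test over all genes. Of the 36, 29 were higher (49.8% of all genes) and 7 lower, with a median log2 difference of 0.24, against -0.0008 over all 18166 genes. In limma 0 genes of 18166 had an adjusted p under 0.05 (0% called, among the 36 the smallest adjusted p was 0.999), while 593 had an unadjusted p under 0.05. Of the 36, 8 had such an unadjusted p and a higher value, 0 a lower one, where 1.61% of all genes were in the first class and 1.66% in the second. In 10 of the 36 all 3 anti-miR-182 arrays lay above all 3 placebo arrays, against 3.5% of all genes, and in 1 (Acadsb) all lay below, against 3.75%. Placebo replicate 3 carried part of the median, which was 0.15 without it, and 28 of the genes were then higher. Without any other single array the median stayed between 0.19 and 0.27. The standard errors given here and below rest on limma's estimate of each gene's spread over all 4 groups. The wider spread under anti-miR-182 at day 2 enters them, so they do not measure the spread at day 7 alone.

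Activation and the peroxisomal membrane held several of the higher values. Acsm5, a medium-chain acyl-CoA synthetase, had log2 signals of 6.32, 6.14 and 6.30 under anti-miR-182 and 5.75, 6.03 and 5.68 under placebo at day 7. The groups did not overlap, and the difference of 0.43 ± 0.136 (SE) was the one with the smallest unadjusted p of the 36 (0.00684; limma adjusted p = 0.999). Crot, the peroxisomal carnitine octanoyltransferase that prepares shortened chains for export, read 9.15, 9.36 and 9.40 against 9, 9.11 and 9.06. Its groups did not overlap either, with a difference of 0.25 ± 0.105. Pex11a, a membrane protein that drives the division of peroxisomes, read 7.24, 7.57 and 7.17 against 6.88, 6.86 and 7.21. Here placebo replicate 3 lay above anti-miR-182 replicate 3, and the difference was 0.34 ± 0.14. Abcd3, a transporter of acyl-CoA into peroxisomes, differed by 0.37 ± 0.172 with no overlap.

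The marker genes overlapped between the treatments at day 7. Ehhadh, the peroxisomal bifunctional enzyme that hydrates and then dehydrogenates the chain, read 8.57, 8.86 and 8.19 under anti-miR-182 and 8.41, 7.74 and 7.78 under placebo. Placebo replicate 1 fell between the anti-miR-182 values, and the difference was 0.57 ± 0.218 (unadjusted p = 0.0209, limma adjusted p = 0.999). Eci1, the mitochondrial isomerase that moves the double bond of unsaturated chains, read 7.99, 8.42 and 7.52 under anti-miR-182 and 7.53, 7.51 and 7.40 under placebo. The placebo animals were close together and anti-miR-182 replicate 3 lay among them, with a difference of 0.49 ± 0.19. Eci2, an isomerase found in peroxisomes as well as mitochondria, read 9.51, 9.35 and 9.26 against 8.98, 8.94 and 9.03, a difference of 0.39 ± 0.183 with no overlap. Decr1, the mitochondrial dienoyl-CoA reductase, read 9.82, 9.58 and 9.61 against 9.21, 9.16 and 9.29, again with no overlap and a difference of 0.45 ± 0.206.

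Mitochondrial genes of the shuttle and the chain-shortening cycle held both the lowest and the highest difference at day 7. Of the carnitine shuttle genes, Cpt1a is the gatekeeper on the outer membrane (0.20 ± 0.173) and Slc25a20 the carrier across the inner membrane (0.08 ± 0.142). Cpt2 releases the chain inside (0.08 ± 0.123), and Crat is the acetyl transferase (0.05 ± 0.14). The differences of Cpt1a, Slc25a20, Cpt2 and Crat were small. That of Cpt1a was close to its standard error over all groups, and those of Slc25a20, Cpt2 and Crat were below theirs. The dehydrogenases Acadvl (0.26 ± 0.167) and Acadl (0.26 ± 0.122), for very long and long chains, did not overlap between treatments. Acadm, for medium chains, differed by 0.23 ± 0.172 and Acads, for short chains, by -0.02 ± 0.109. Acadsb, which acts on short branched chains, went the other way with 8.46, 8.25 and 8.61 under anti-miR-182 and 8.96, 9.24 and 8.90 under placebo, a difference of -0.59 ± 0.326 (limma adjusted p = 0.999). Hadha and Hadhb differed by 0.11 ± 0.133 and 0.14 ± 0.154. The mitochondrial thiolase Acaa2 had the highest difference of all 36, 0.62 ± 0.324, from values of 9.67, 10.23 and 8.94 against 9.02, 9.56 and 8.40. Its groups overlapped widely. Of the remaining peroxisomal genes, the thiolase Acaa1a (0.25 ± 0.107) and the bifunctional enzyme Hsd17b4 (0.27 ± 0.13) did not overlap, while the branched-chain oxidases Acox2 (-0.04 ± 0.143) and Acox3 (-0.02 ± 0.105), the phytanic acid hydroxylase Phyh (-0.03 ± 0.104), the thiolase and lipid carrier Scp2 (-0.02 ± 0.17) and the hydroxyacid oxidase Hao2 (0.02 ± 0.154) lay near 0.

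**Figure D2:**
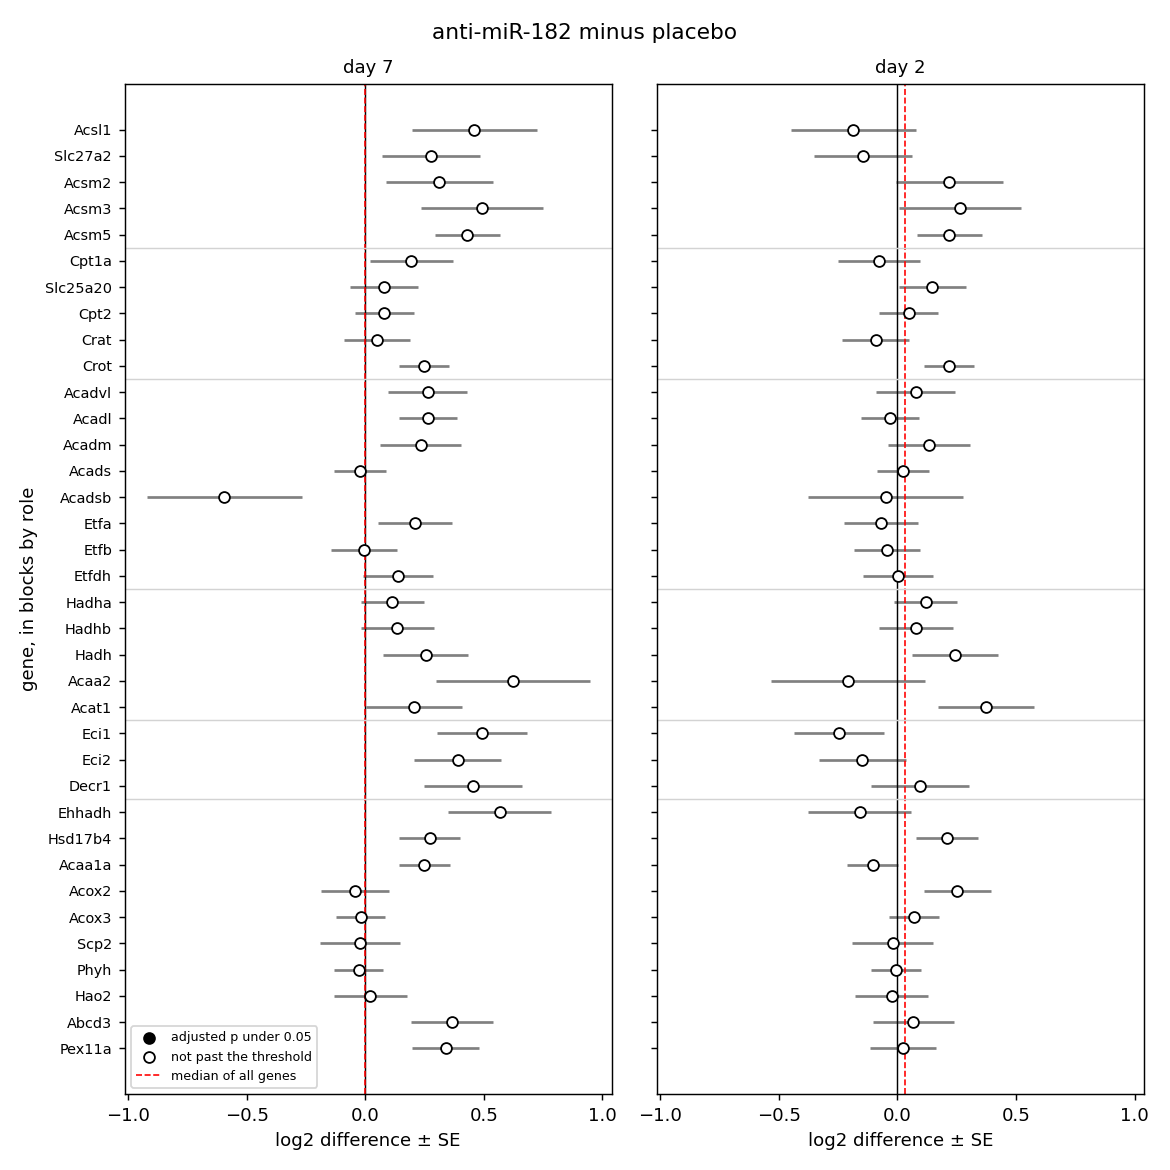
Points are the log2 difference, anti-miR-182 minus placebo, of each gene at day 7 (left) and day 2 (right), with the standard error from limma as a bar. All points are open because none reached an adjusted p under 0.05. At day 7, 29 of 36 lie above 0 and Acadsb lies lowest, and at day 2 the points lie on both sides of 0.

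No marker of any cell type passed between the treatments at day 7 in limma. Of the 20 measured proximal tubule genes 18 were higher under anti-miR-182 (49.8% of all genes; median log2 difference 0.26), 3 of them at an unadjusted p under 0.05 (1.61% of all genes). Relative to all genes, the list stood at 3.59, 3.46 and 2.70 on the anti-miR-182 arrays and at 3.01, 3.02 and 2.87 on the placebo arrays. All 11 macrophage markers were lower under anti-miR-182 (median -0.34), 1 at an unadjusted p under 0.05 (1.66% of all genes). The macrophage list stood at 0.522, 0.576 and 0.666 against 0.484, 1.69 and 0.809. All 9 measured fibroblast and matrix genes were lower as well (median -0.53), 5 at an unadjusted p under 0.05 (1.66% of all genes), with levels of 1.15 to 1.27 against 1.55 to 2.26. Of the 5 measured urothelium genes 4 were lower (median -0.59), 3 at an unadjusted p under 0.05 (1.66% of all genes). That list stood at -0.692, -0.82 and -0.7 under anti-miR-182 and at 0.296, 0.145 and -0.886 under placebo, so that placebo replicates 1 and 2 lay above every other array of the study. The thick ascending limb list stood at 3.33, 3.09 and 3.48 against 4.04, 3.04 and 3.03, with placebo replicate 1 the high array. The part of these cell types in the fatty acid oxidation values was not tested.

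**Figure D3:**
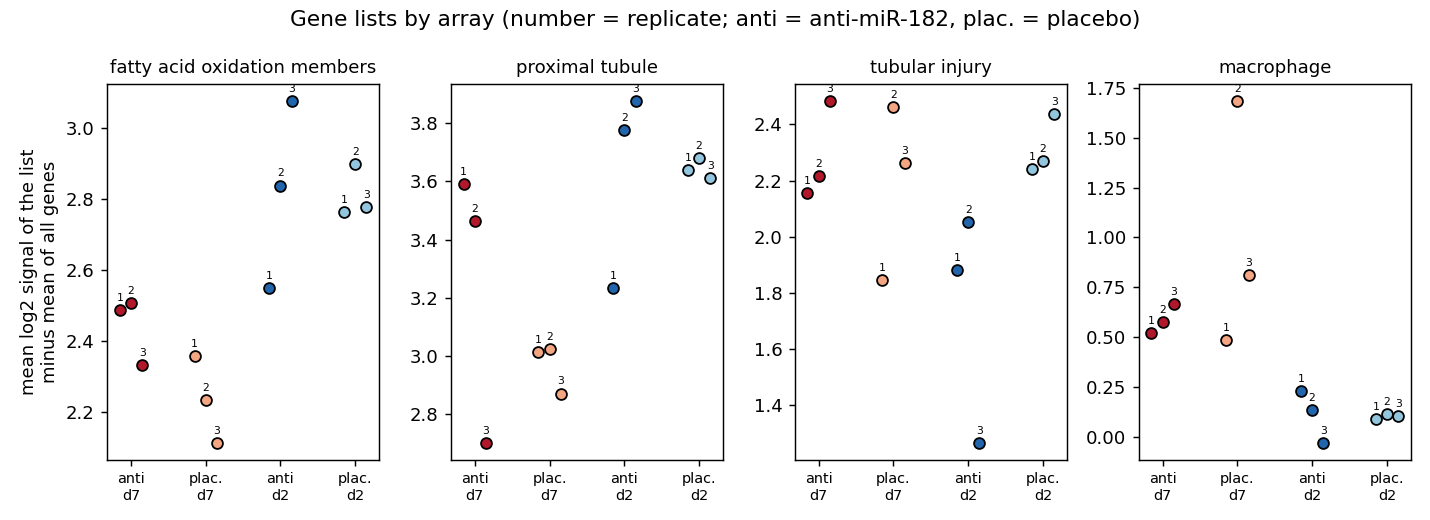
Each point is 1 array: the mean log2 signal of a gene list minus the mean of all genes on that array, for the fatty acid oxidation genes and for 3 marker lists, in the 4 groups. The numbers are the replicates. For the fatty acid oxidation genes all day 7 arrays (2.11 to 2.51) lie below all day 2 arrays (2.55 to 3.08).

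At day 2 the same comparison gave values on both sides of 0. Of the 36 genes 20 were higher (58.7% of all genes) and 16 lower under anti-miR-182, with a median of 0.02 against 0.03 over all genes. In limma 0 of 18166 genes had an adjusted p under 0.05 (0% called), and of the 36 genes 0 reached an unadjusted p under 0.05, where 4.2% of all genes did so with a higher value and 2.41% with a lower one. Crot was the single gene of the 36 whose arrays did not overlap (8.06% of all genes had all 3 arrays higher, 4.24% all lower). It read 9.85, 9.91 and 10.02 under anti-miR-182 and 9.74, 9.73 and 9.66 under placebo, a difference of 0.22 ± 0.105 (unadjusted p = 0.057, limma adjusted p = 0.761). Acat1, which forms and cleaves acetoacetyl-CoA, read 9.02, 9.33 and 9.85 against 9.12, 9.01 and 8.95. Replicate 3 was the high animal there, and the difference was 0.37 ± 0.203. Ehhadh (-0.16 ± 0.218) and Eci1 (-0.25 ± 0.19) had lower means with the inhibitor at day 2. Because the animals of the inhibitor group were spread, 1 array set the direction: without anti-miR-182 replicate 1 the median was 0.11 and 33 genes were higher, and without replicate 3 it was -0.07 and 13 were higher.

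Averaged over both days, 30 of the 36 genes had a higher value under anti-miR-182 (55.5% of all genes) and 6 a lower one, with a median of 0.12 against 0.01 over all genes. The limma test called 1 gene of 18166 (0.0055%), Mir182, and none of the 36. Without anti-miR-182 replicate 1 at day 2 the median was 0.20. Acsm5 (0.33 ± 0.0963), Crot (0.23 ± 0.0744) and Hsd17b4 (0.24 ± 0.0918) had an unadjusted p under 0.05 with a higher value, as did 3.24% of all genes, and 0 of the 36 had one with a lower value (2.03%). Hsd17b4 read 11.38, 11.68 and 11.35 against 11.13, 11.19 and 11.28 at day 7, and 11.55, 11.82 and 11.89 against 11.67, 11.58 and 11.38 at day 2.

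Whether the effect of the inhibitor differed between the days was tested as the day 7 difference minus the day 2 difference. It was above 0 in 27 of 36 genes (44.5% of all genes), with a median of 0.12, against -0.03 over all genes. In limma 0 of 18166 genes passed (0% called), and 713 had an unadjusted p under 0.05. Eci1 had the smallest unadjusted p of the 36 (0.74 ± 0.268, unadjusted p = 0.0152, limma adjusted p = 0.999), then Ehhadh (0.73 ± 0.308) and Acaa1a (0.35 ± 0.152). These 3 were the genes of the 36 with an unadjusted p under 0.05 and a higher value, where 1.22% of all genes were in that class, and 0 had a lower value with such a p (2.7%). Replicate 1 of anti-miR-182 at day 2 decided the median, which was -0.01 without it and 0.23 without replicate 3.

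The largest differences of the 36 genes were between the days. Under anti-miR-182 the log2 difference, day 7 minus day 2, was below 0 in 35 of 36 genes (median -0.52, all genes -0.21), and under placebo likewise in 35 of 36 (median -0.65, all genes -0.18). Of all genes 23.6% under anti-miR-182 and 28% under placebo lay above 0. At an adjusted p under 0.05 in limma, 24 genes fell and 0 rose under anti-miR-182, where 24.9% of all genes fell and 2.68% rose. Under placebo 28 fell and 0 rose, where 23.7% of all genes fell and 4.22% rose. All 3 day 7 arrays lay below all 3 day 2 arrays in 23 of the 36 genes under anti-miR-182 (35% of all genes) and in 33 under placebo (40%). The comparisons within anti-miR-182 and within placebo share no arrays, but they used the same estimate of each gene's spread, taken over all groups. Any shift between days that came from normalization would also enter both. The calls of these comparisons are therefore not independent. Of the 36 genes 23 fell in both (16.3% of all genes), which is 95.8% of those that fell under anti-miR-182 and 82.1% of those that fell under placebo. Among all genes these shares were 65.7% and 68.8%.

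Part of the difference between days was common to most genes, and other scalings of the arrays lowered the counts. With each array centred on its median, 8 of the 36 genes fell under anti-miR-182 (7.44% of all genes) and 16 under placebo (9.62%). With quantile normalization 7 fell under anti-miR-182 (7.62% of all genes) and 14 under placebo (7.9%). The share of higher genes among all calls came to 9.7% for anti-miR-182 and 15.1% for placebo as deposited, 45.6% and 45.8% after centring, and 48.6% and 50.7% after quantile normalization. The median of the 36 genes was still below 0 in each, at -0.34 and -0.26 under anti-miR-182 and at -0.50 and -0.35 under placebo after centring and quantile normalization. As deposited, centred and quantile normalized alike, 7 of the 36 genes (19.4%) fell under anti-miR-182, against 6.85% of all genes, and 14 (38.9%) under placebo, against 6.94%. The 7 were Acsm3, Cpt2, Acaa2, Eci2, Ehhadh, Acox2 and Pex11a, and all of them also fell under placebo in the 3 scalings (4.05% of all genes fell under both treatments in the 3). The other 7 of placebo were Acsl1, Acsm5, Cpt1a, Crot, Eci1, Acaa1a and Abcd3. Single arrays also moved the count on deposited values under anti-miR-182, which was 24 with all arrays. It was 30 without day 2 replicate 1, 13 without day 2 replicate 2, 15 without day 7 replicate 1 and 14 without day 7 replicate 3. Over all genes 4561, 2713, 2879 and 2930 fell in these runs, in that order, against 4515 with all arrays. Under placebo the count among the 36 stayed between 22 and 30.

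Ehhadh of the peroxisome had the largest fall of the 36 genes under both treatments. It read 8.57, 8.86 and 8.19 at day 7 and 9.76, 10.43 and 10.13 at day 2 under anti-miR-182, and 8.41, 7.74 and 7.78 at day 7 and 10.36, 10.44 and 10.01 at day 2 under placebo. The days did not overlap under either treatment, and Ehhadh fell by 1.56 ± 0.218 under anti-miR-182 (2.96-fold, limma adjusted p = 0.000453) and by 2.29 ± 0.218 under placebo (4.9-fold, adjusted p = 5.98e-05). Pex11a stood at 7.24, 7.57 and 7.17 at day 7 against 8.25, 8.35 and 8.42 at day 2 under anti-miR-182, and at 6.88, 6.86 and 7.21 against 8.47, 8.13 and 8.35 under placebo. It fell by 1.02 ± 0.14 under anti-miR-182 (limma adjusted p = 0.000423) and by 1.33 ± 0.14 under placebo (7.83e-05), with no overlap of the days. Abcd3 fell by 0.73 ± 0.172 and 1.03 ± 0.172, and Acox2 by 0.99 ± 0.143 and 0.70 ± 0.143, under anti-miR-182 and placebo in that order. Acaa1a, at 6.94, 6.90 and 6.94 against 7.21, 7.11 and 7.13, did not pass under anti-miR-182 (-0.22 ± 0.107, limma adjusted p = 0.131). Under placebo it read 6.79, 6.50 and 6.74 against 7.21, 7.37 and 7.19 and fell by 0.58 ± 0.107 (adjusted p = 0.00231). Of the 10 peroxisomal genes, 6 fell under anti-miR-182 (24.9% of all genes) and 7 under placebo (23.7%). Hsd17b4 (-0.28 ± 0.13 and -0.35 ± 0.13) and Scp2 (-0.38 ± 0.17 and -0.38 ± 0.17) passed under neither, and Acox3 passed under anti-miR-182 (-0.35 ± 0.105, limma adjusted p = 0.0262) and not under placebo (-0.26 ± 0.105, adjusted p = 0.0807).

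**Figure D4:**
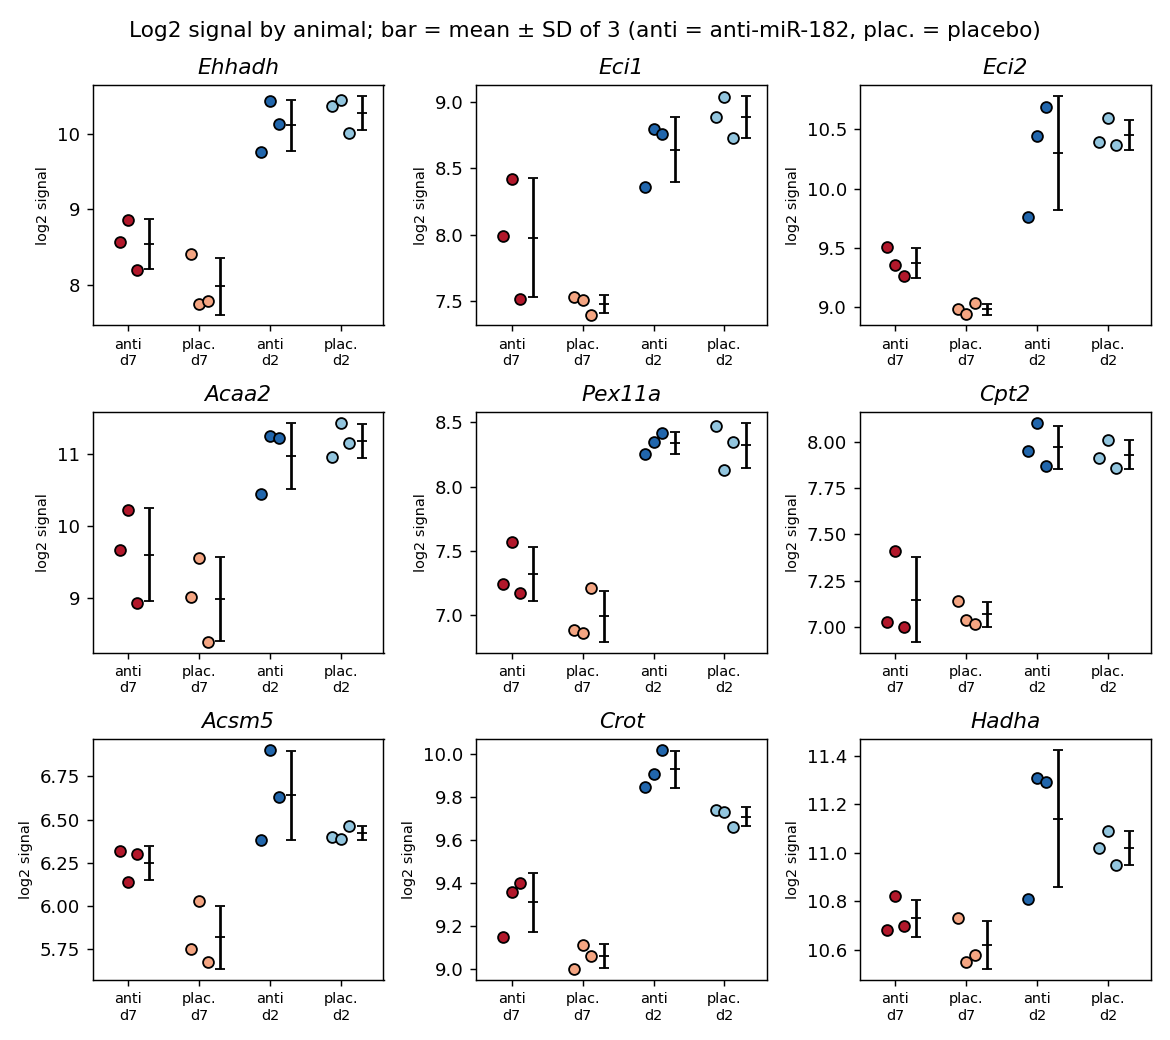
Points are the log2 signals of 9 genes in single animals of the 4 groups, day 7 left of day 2 and anti-miR-182 left of placebo, and the bars give the mean ± SD of 3. The vertical axes differ between genes and do not start at 0. In Ehhadh, Eci2, Acaa2, Pex11a, Cpt2, Acsm5 and Crot the day 7 animals lie below the day 2 animals of the same treatment, while in Eci1 and Hadha under anti-miR-182 the days overlap.

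Both isomerases for unsaturated chains fell under both treatments. Eci2 read 9.51, 9.35 and 9.26 at day 7 against 9.76, 10.44 and 10.69 at day 2 under anti-miR-182, and 8.98, 8.94 and 9.03 against 10.39, 10.60 and 10.37 under placebo. It fell by 0.93 ± 0.183 under anti-miR-182 (limma adjusted p = 0.00329) and by 1.47 ± 0.183 under placebo (adjusted p = 0.000215), with no overlap of the days. Eci1 read 7.99, 8.42 and 7.52 against 8.36, 8.80 and 8.76 under anti-miR-182, where the days overlapped, and 7.53, 7.51 and 7.40 against 8.89, 9.04 and 8.73 under placebo. It fell by 0.66 ± 0.19 under anti-miR-182 (limma adjusted p = 0.0202) and by 1.40 ± 0.19 under placebo (0.000334), and the call under anti-miR-182 was lost after either other scaling. Decr1 passed under neither treatment (0.05 ± 0.206 and -0.31 ± 0.206), and under placebo it turned positive after quantile normalization. The test of the difference between the treatments is the one of the inhibitor effect between days given above, and it called 0 of the 18166 genes.

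At the mitochondrial end of the pathway the thiolase Acaa2 fell most. It read 9.67, 10.23 and 8.94 at day 7 against 10.45, 11.25 and 11.23 at day 2 under anti-miR-182, and 9.02, 9.56 and 8.40 against 10.97, 11.43 and 11.16 under placebo. It fell by 1.36 ± 0.324 under anti-miR-182 (2.57-fold, limma adjusted p = 0.00855) and by 2.19 ± 0.324 under placebo (4.57-fold, adjusted p = 0.000606). Hadha, the trifunctional protein's alpha subunit, read 10.68, 10.82 and 10.70 against 10.81, 11.31 and 11.29 under anti-miR-182, and 10.73, 10.55 and 10.58 against 11.02, 11.09 and 10.95 under placebo. It fell by 0.40 ± 0.133 under each treatment (1.32-fold; limma adjusted p = 0.0376 under anti-miR-182 and 0.039 under placebo), and neither call was kept after centring or quantile normalization. Hadhb fell by 0.59 ± 0.154 and 0.65 ± 0.154, and Hadh, the short-chain hydroxyacyl-CoA dehydrogenase, by 0.68 ± 0.18 and 0.69 ± 0.18. Acat1 did not pass (-0.50 ± 0.203 and -0.33 ± 0.203).

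Of the 5 carnitine shuttle genes 4 fell under each treatment, where 24.9% of all genes fell under anti-miR-182 and 23.7% under placebo. Cpt2 read 7.03, 7.41 and 7 at day 7 against 7.95, 8.10 and 7.87 at day 2 under anti-miR-182, and 7.14, 7.04 and 7.02 against 7.91, 8.01 and 7.86 under placebo. It fell by 0.83 ± 0.123 under anti-miR-182 (limma adjusted p = 0.000696) and by 0.86 ± 0.123 under placebo (adjusted p = 0.000505), with no overlap. Cpt1a read 8.11, 8.57 and 7.98 against 8.67, 9.24 and 8.63 under anti-miR-182, and 8.13, 7.97 and 7.97 against 9.04, 8.85 and 8.88 under placebo. It fell by 0.63 ± 0.173 under anti-miR-182 (limma adjusted p = 0.0174), a call lost after either other scaling, and by 0.90 ± 0.173 under placebo (0.00275). Slc25a20 read 7.95, 7.86 and 7.98 against 8.13, 8.66 and 8.62, and 7.77, 7.92 and 7.86 against 8.21, 8.53 and 8.24. It fell by 0.54 ± 0.142 and 0.48 ± 0.142 (limma adjusted p = 0.0136 under anti-miR-182 and 0.0245 under placebo), without a call under the other scalings. Crot fell by 0.62 ± 0.105 and 0.65 ± 0.105, with a limma adjusted p of 0.00143 and 0.00103. Crat was the step that did not pass under either treatment (-0.20 ± 0.14 and -0.34 ± 0.14).

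Activation enzymes fell by up to 2.81-fold. Acsl1, the synthetase for long chains, read 8.25, 8.72 and 7.77 at day 7 against 8.55, 9.39 and 9.34 at day 2 under anti-miR-182, and 8.16, 7.80 and 7.40 against 9.14, 9.55 and 9.14 under placebo. It fell by 0.84 ± 0.264 under anti-miR-182, where the days overlapped (limma adjusted p = 0.0302, lost after either other scaling), and by 1.49 ± 0.264 under placebo (0.00179). Acsm3, a medium-chain synthetase, read 10.57, 9.83 and 9.28 against 10.86, 10.87 and 11.35, and 9.10, 9.65 and 9.44 against 10.96, 10.75 and 10.58. It fell by 1.13 ± 0.258 under anti-miR-182 (limma adjusted p = 0.00684) and by 1.36 ± 0.258 under placebo (0.0025), with no overlap in either. Acsm5 fell by 0.39 ± 0.136 and 0.60 ± 0.136, Acsm2 by 0.73 ± 0.226 and 0.82 ± 0.226, and Slc27a2, which activates very long chains, by 0.74 ± 0.206 under placebo, with a value of -0.32 ± 0.206 under anti-miR-182 that did not pass.

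Of the 8 genes for mitochondrial acyl-CoA dehydrogenases and their electron acceptors, 4 fell under anti-miR-182 (24.9% of all genes) and 6 under placebo (23.7%). Acadl fell by 0.38 ± 0.122 and 0.68 ± 0.122, Acadvl by 0.48 ± 0.167 and 0.67 ± 0.167, Acads by 0.49 ± 0.109 and 0.44 ± 0.109, and Etfdh, which passes the electrons to ubiquinone, by 0.58 ± 0.148 and 0.72 ± 0.148. The electron transfer flavoprotein genes Etfa (-0.47 ± 0.156) and Etfb (-0.40 ± 0.139) fell under placebo, and under anti-miR-182 their values were -0.19 ± 0.156 and -0.36 ± 0.139. Acadm read 10.80, 10.78 and 10.71 at day 7 against 10.82, 10.88 and 11.41 at day 2 under anti-miR-182, and 10.92, 10.42 and 10.26 against 10.85, 10.94 and 10.92 under placebo. It passed under neither (-0.27 ± 0.172 and -0.37 ± 0.172), and under anti-miR-182 it was above 0 after quantile normalization, as were Crat and Etfa. Acadsb was the gene of the 36 with no fall under placebo (0.0002 ± 0.326).

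**Figure D5:**
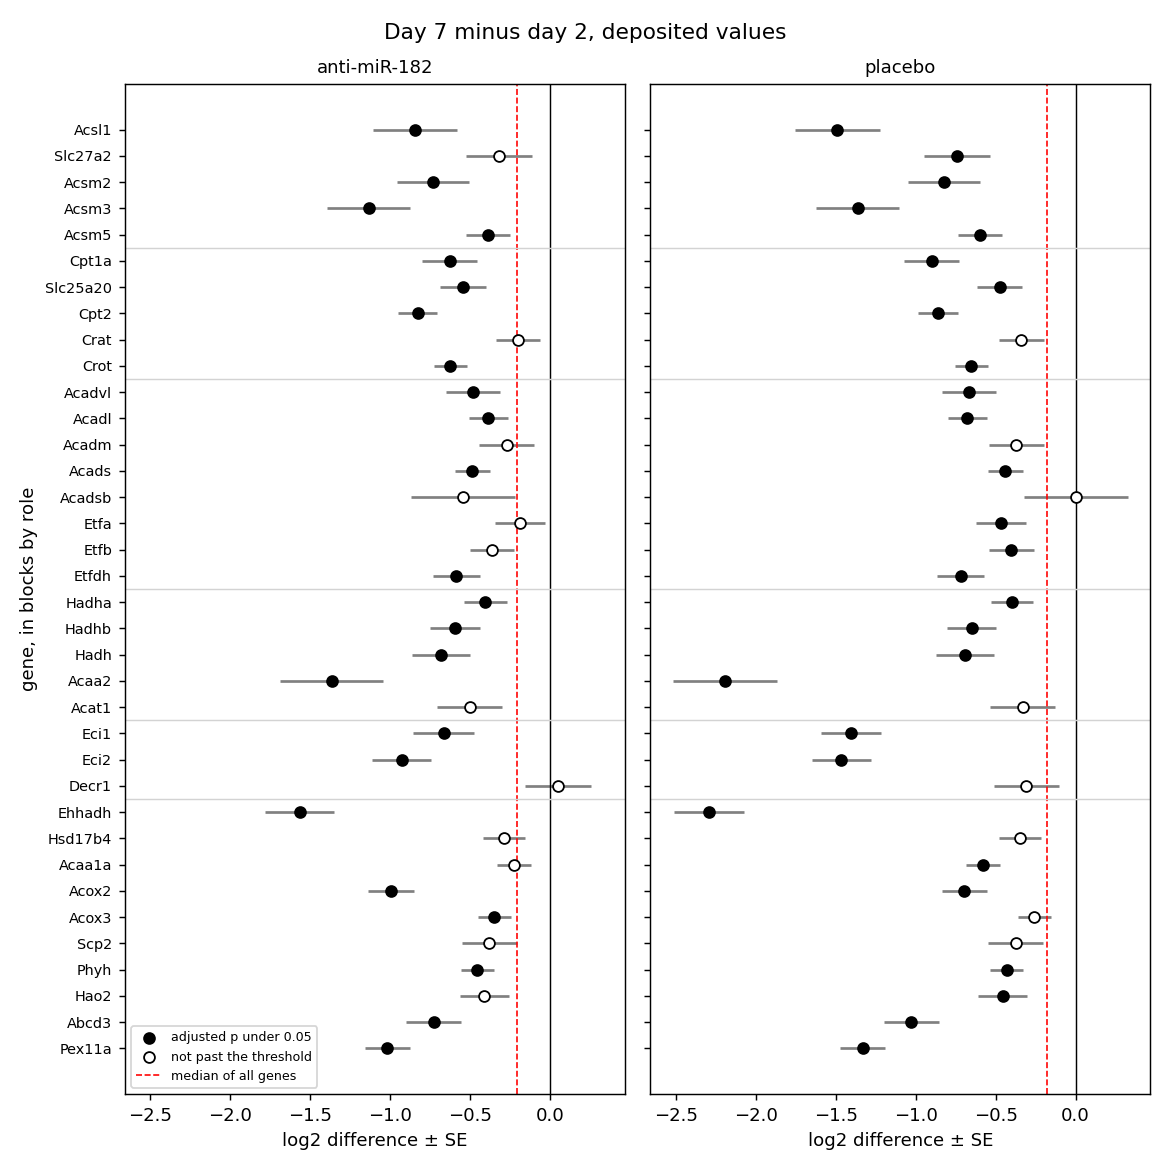
Points are the log2 difference, day 7 minus day 2, of each gene on the deposited values, under anti-miR-182 (left) and placebo (right), with the standard error from limma as a bar. Filled points have an adjusted p under 0.05, 24 on the left and 28 on the right, and the dashed line is the median of all genes. Ehhadh and Acaa2 lie farthest from it in both panels.

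A separate list held 61 further fatty acid oxidation genes, 50 of them measured. Under each treatment 23 of the 50 fell between the days and 0 rose, while 24.9% of all genes fell under anti-miR-182 and 23.7% under placebo. The 50 had a median of -0.39 with the inhibitor and -0.41 with placebo. Acsl3, a further long-chain synthetase, fell by 0.91 ± 0.128 and 0.92 ± 0.128, Slc22a5, the plasma membrane carnitine transporter, by 1.12 ± 0.229 and 1.53 ± 0.229, and Cyp4a1, which hydroxylates the end of fatty acid chains, by 0.95 ± 0.266 under anti-miR-182 and 1.89 ± 0.266 under placebo. The thioesterases Acot1 (1.05 ± 0.239 and 1.38 ± 0.239) and Acot2 (0.59 ± 0.121 and 0.98 ± 0.121) fell by these amounts. Between the treatments at day 7, 37 of the 50 were higher under anti-miR-182 (49.8% of all genes) and 0 passed over all genes in limma. Their median was 0.08, against 0.24 for the 36 genes. The day 7 difference minus the day 2 difference was above 0 in 21 of the 50 (44.5% of all genes). Its median was -0.02, against 0.12 for the 36, so the 50 did not share that shift. The smallest unadjusted p values belonged to Gcdh, of lysine breakdown (0.51 ± 0.166), Cyp4a1 (0.77 ± 0.266) and Slc22a5 (0.57 ± 0.229).

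Of 24 measured genes around PPAR-alpha and lipid handling, 4 fell and 0 rose under anti-miR-182 between the days, where 24.9% of all genes fell and 2.68% rose. Under placebo 8 fell and 3 rose, where 23.7% of all genes fell and 4.22% rose. The list had a median difference of -0.19 with the inhibitor and -0.22 with placebo, against -0.21 and -0.18 over all genes. Ppara, the receptor itself, fell by 1.03 ± 0.227 and 1.14 ± 0.227 (limma adjusted p = 0.00592 under anti-miR-182 and 0.00336 under placebo). Vnn1, a pantetheinase and PPAR-alpha target in mouse liver, fell by 1.2 ± 0.281 and 2.47 ± 0.281, the lipid droplet coat gene Plin2 by 0.62 ± 0.168 and 1.05 ± 0.168, and the hormone gene Fgf21 by 1.13 ± 0.152 and 0.61 ± 0.152. Under placebo, Angptl4 (-0.88 ± 0.198) and Pdk4 (-0.98 ± 0.268), both known PPAR targets, fell as well, and the lipoprotein lipase gene Lpl (0.92 ± 0.186), Pparg (0.58 ± 0.164) and Acacb (0.33 ± 0.116) rose. At day 7, Vnn1 differed by 0.997 ± 0.281 between the treatments (unadjusted p = 0.00321, limma adjusted p = 0.999). Of 12 measured peroxins, which build peroxisomes, 6 fell under anti-miR-182 (24.9% of all genes) and 5 under placebo (23.7%), among them Pex7 (-0.44 ± 0.108 and -0.42 ± 0.108) and Pex2 (-0.47 ± 0.117 and -0.39 ± 0.117).

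Of 20 measured proximal tubule markers, 6 fell under anti-miR-182, where 24.9% of all genes fell, and 10 under placebo, where 23.7% did (medians -0.35 and -0.58). The gluconeogenic gene Pck1 led with -2.03 ± 0.292 and -2.50 ± 0.292, the anion transporter Slc22a6 averaged 8.41 at day 7 against 10.07 at day 2 under placebo, and Slc22a7 was dim on every array (5.52 to 6.02). Relative to all genes, the whole list stood at 2.70 to 3.59 under anti-miR-182 and 2.87 to 3.02 under placebo at day 7, and at 3.23 to 3.88 and 3.61 to 3.68 at day 2. Of 11 macrophage markers 2 rose under anti-miR-182 (2.68% of all genes) and 5 under placebo (4.22%). The part of cell types in the differences between days was not tested.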

How the data were processed

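Per the labels, rat kidney kept in RNAlater was the source, Trizol the extraction, and 200 ng of total RNA per sample went into amplification and biotin labelling. The authors deposited log2 signals, 36685 rows on 12 arrays, ranging from 1.48 to 13.37. The submitters' processing notes name RMA without a version. These values were used as deposited. Platform annotation lists 18511 rows with 1 symbol, 575 with several, and 17599 rows are not listed. Complete rows with a single symbol made 18166 genes, and for 291 genes with several rows the row with the highest mean was taken.

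Limma 3.58.1 in R 4.3.3 was fitted to the 4 groups named in the sample titles, and gave 6 comparisons with Benjamini-Hochberg adjustment over all genes (threshold 0.05, two-sided). The number of arrays limits the precision. The steps were tested on simulated data. Values on single arrays are given for Ehhadh, Eci1, a fixed set of pathway steps and the 4 genes with the smallest unadjusted p in each comparison, and those of a few further genes, such as Acaa2, Acadsb, Decr1 and Hsd17b4, were added after they were seen. Of the other lists, genes that passed or had the smallest p were named. The members and lists were chosen with earlier results of these data known. Alternatives were eBayes with a trend or robust, array weights, quantile normalization and median centring. Others left out the dimmest 25% of genes, or took the mean of a gene's rows. Still others added a covariate for low or high animal number, fitted each day alone, or left out each array in turn. Promoter and microRNA sequences are from RefSeq GRCr8.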

Additional observations from a re-analysis of the deposited data

How the results depend on the processing

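No paired analysis was possible because the labels give animal codes and no shared replicate numbers. In the comparisons of treatments, none of the 36 genes passed under any alternative run. Over all genes, the count at day 2 was 1 in place of 0 with array weights, with the animal number covariate and with each day fitted alone. The count for the mean of both days was 0 in place of 1 when the dimmest 25% of genes were left out. Mir182, the gene called, was among those left out, so that run could not test its call. Its call also depended on single arrays. No gene was called for the mean of both days without anti-miR-182 replicate 3 or placebo replicate 2 or 3 of day 2. The same held without anti-miR-182 replicate 1 of day 7. Leaving out single arrays gave 0 to 1 genes at day 2, 0 to 3 at day 7, 0 to 4 for the mean of both days and 0 to 1 for the difference between days. The median of the 36 genes then ran from -0.07 to 0.11 at day 2, from 0.15 to 0.27 at day 7, from 0.08 to 0.20 for the mean and from -0.01 to 0.23 for the difference between days.

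Between the days, quantile normalization gave 2695 genes and 7 of the 36 under anti-miR-182 (median -0.26) and 2914 genes and 14 of the 36 under placebo (median -0.35), against 5002 and 5080 genes as deposited. Median centring gave 2482 genes and 8 of the 36 under anti-miR-182 and 3228 genes and 16 of the 36 under placebo (median -0.50). Both remove a shift between days that most genes share. The animal number covariate split the animals into low and high numbers, and all day 2 animals had high numbers. It thus overlapped with the day. With it, 3367 genes and 15 of the 36 passed under anti-miR-182, and 3480 genes and 21 of the 36 under placebo. Leaving out single arrays gave 3069 to 5072 genes under anti-miR-182, 13 to 30 of the 36 and medians of -0.69 to -0.43, and 3198 to 5773 genes under placebo, 22 to 30 of the 36 and medians of -0.67 to -0.58. Among 17 genes named by rule, 1 of 340 alternative values under anti-miR-182 and 0 of 340 under placebo changed sign, while 44 and 15 lost the call. The other alternatives (trend, robust, the mean of a gene's rows) left each of these counts within 1.5 times its value.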
